A study of Mus musculus with 6 samples.

Results

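The genes that tie cells to the matrix around them were followed in RNA from mouse penile tumors and normal penile epithelium. The set held 25 integrin subunit genes, 10 laminin chain genes, the basement membrane linker genes Nid1, Nid2, Hspg2 and Agrn, and the plakin genes Dst and Plec. These 41 genes were taken by symbol from the 24063 gene symbols of the count tables, with no threshold on a measured value, and the list of names was drawn up with earlier results of these data known. Where a symbol had several RefSeq transcript rows, the row with the highest mean count stood for the gene.

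The tumors came from 3 SA mice (PB-Cre+ Smad4L/L ApcL/L), in which a Cre recombinase driven by the probasin promoter deletes floxed Smad4 and Apc alleles in androgen-responsive epithelium, and they arose with no carcinogen. The controls were normal penile epithelium of 3 wild type C57BL/6 mice, which carried neither Cre nor floxed alleles. All mice were 5 months old, and whole tissue RNA was read from both ends in strand-specific libraries. The genetic background of the SA mice is not given in the sources used here, so genotype, strain and tumor state cannot be told apart.

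Integrins are pairs of 1 α and 1 β subunit that span the plasma membrane and hold laminins, collagens or RGD-bearing proteins such as fibronectin outside the cell, while linking to actin or keratin inside. Laminins are three-chain proteins (α, β and γ) that form the sheet of the basement membrane, which nidogens, perlecan (Hspg2) and agrin connect to other matrix proteins and to the cell surface. In stratified epithelium such as that of the penis, the basal keratinocytes rest on this sheet through hemidesmosomes, where integrin α6β4 and the collagen Col17a1 face the laminin of the α3 and β3 chains, and plectin and the short epithelial form of dystonin hold the keratin filaments. Integrins of the β2 and β7 families are carried by leukocytes.

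The 6 libraries held between 23828283 and 110509147 counts in gene rows. The deepest, SA tumor 3, held 4.42 times the median of the other 5, and a count of 3 corresponded to between 0.0244 and 0.137 CPM (the count scaled by the library total and edgeR's TMM factor), a floor that covers counting error only. The floxed gene Smad4 was at 36.6, 36.1 and 46.1 CPM in the SA tumors and at 61.2, 69.7 and 72.5 CPM in the WT penises, and Apc at 253, 194 and 197 CPM against 62.5, 85.3 and 91.1 CPM. These counts cover whole transcripts and so do not check the deleted parts. The WT tissue carried keratinocyte markers (a sum of 67566 to 76417 CPM over 10 genes) together with smooth muscle markers (1733 to 2291 CPM over 10 genes), fibroblast markers (6502 to 6840 CPM over 10 genes) and Schwann cell markers (231 to 276 CPM over 8 genes), so it was not epithelium alone. In the SA tumors the same sums were 30221 to 34716, 94.0 to 209, 1629 to 5260 and 49.1 to 67.0 CPM. The sum of 9 granulocyte markers was 1447 to 2532 CPM in the SA tumors against 57.0 to 121 CPM in the WT penises. S100a8 and S100a9 made up most of that sum in every sample. Their SA values were 734, 582 and 1034 CPM and 976, 803 and 1368 CPM. The next highest marker, Csf3r, was at 19.1, 28.4 and 63.4 CPM in the SA tumors. The sum thus mainly follows S100a8 and S100a9 and does not measure the number of granulocytes. In such bulk samples, fewer cells of a type and less RNA per cell cannot be told apart.

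Of the 41 genes, all of which passed the filter on low counts, 13 differed between SA tumors and WT penises at an adjusted p under 0.01 in edgeR's quasi-likelihood F-test, adjusted by Benjamini-Hochberg over 16336 genes. Higher in SA tumors were Itga1, Itgae, Itgax, Itgal and Lama5, which is 5 of 41 (12.2%), where 20.1% of all genes tested were higher. The 8 lower genes were Itga8, Dst, Itgb6, Itga10, Lamb2, Itgb4, Plec and Itga3, a share of 19.5% where 17.5% of all genes tested were lower. Of these, a change of 2 or more on the log2 scale was reached by 3 higher genes (7.32%, against 9.41% of all genes) and by 2 lower genes (4.88%, against 3.59%). All 3 SA values lay above all 3 WT values in 12 genes (29.3%, against 32.7% of all genes) and below them in 13 (31.7%, against 30.7%), and in the other 16 the groups overlapped. The shares of the 41 genes were thus near or below those of all genes in each of these counts, and their median log2 fold change was 0.15, against 0.03 over all genes. The number of changed genes fell from 13 to 8 without WT penis 2, with 3 higher and 5 lower. It was 9 without SA tumor 2, with 3 higher, and 16 without SA tumor 1, with 8 higher. When libraries were scaled by their totals alone, which moved the median of all genes to 0.31, 12 of the 41 genes were higher and 5 lower. The shares of all genes called under these other settings are not given here, so these counts cannot be set against them. Itga1, Itga8, Itgax, Itgae, Itgb4, Itgb6, Lamb2 and Dst passed the test under all 17 alternative settings.

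**Figure D1:**
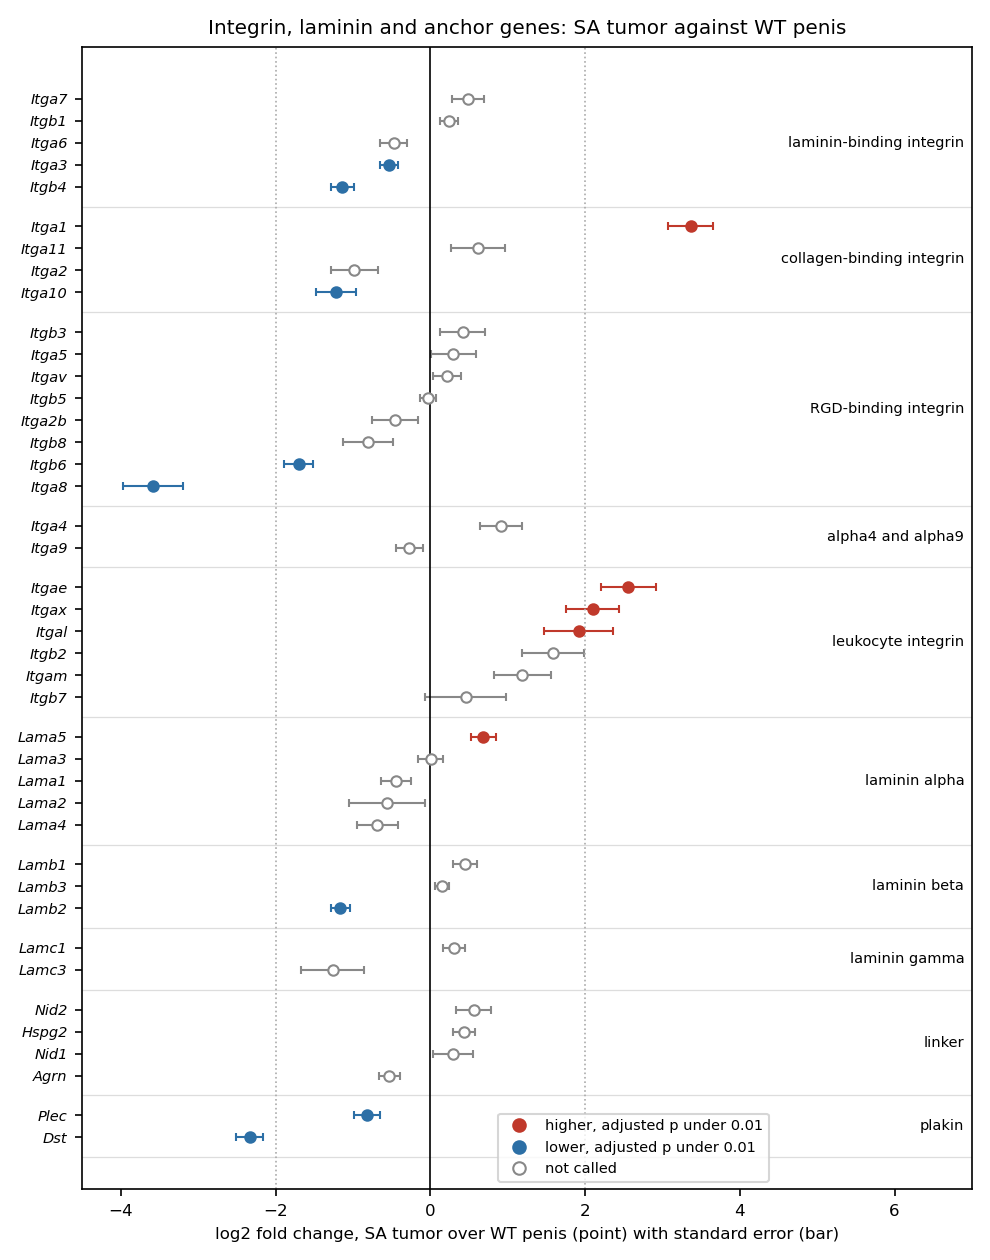
Log2 fold change of SA tumor over WT penis for the 41 genes (horizontal axis, points, with the standard error as bars), grouped by role and ordered within each role. Filled points passed an adjusted p of 0.01 (5 higher in red, 8 lower in blue), open points did not, and dotted lines mark a log2 fold change of 2 in size. Itga1 lies farthest to the right at 3.36 and Itga8 farthest to the left at -3.59.

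**Figure D2:**
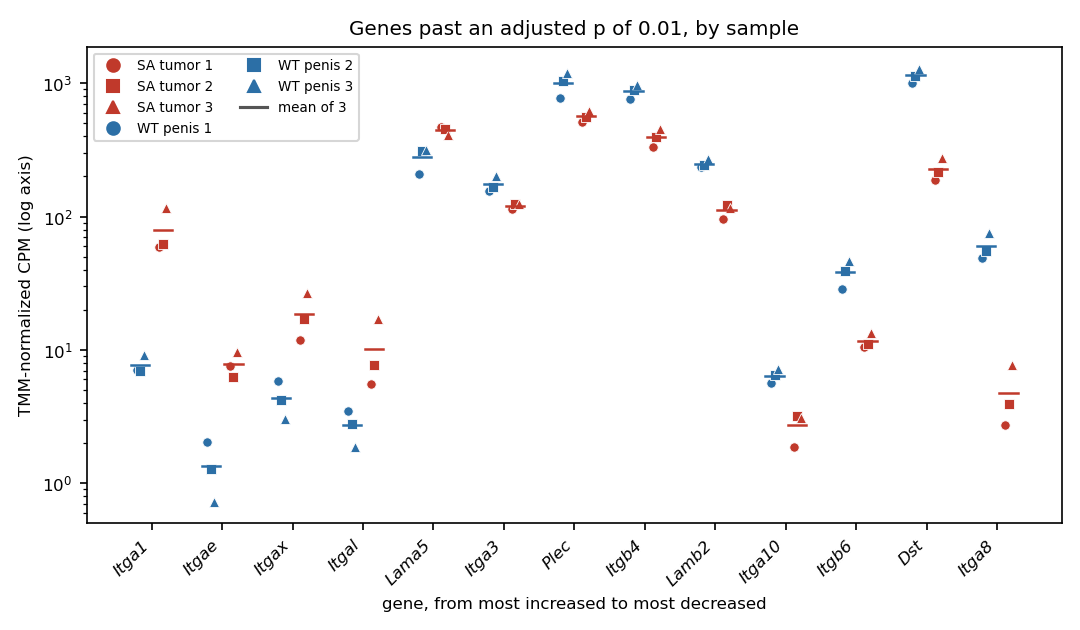
TMM-normalized CPM (log axis) of the 13 genes past an adjusted p of 0.01 in each of the 6 samples, with SA tumors in red, WT penises in blue, 1 symbol per replicate number and a short line at the mean of 3. The red and blue points do not overlap in any of the 13 genes, and the widest gaps are in Itga1 and Itga8.

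Among the 5 genes of laminin-binding integrins, Itgb4 and Itga3 were lower in SA tumors (40%, against 17.5% of all genes). None was higher (against 20.1%). Itgb4 (NM_001005608, mm10 chromosome 11, 115974725 to 116008412), the β subunit of the hemidesmosome integrin, was at 333, 397 and 455 CPM in the SA tumors and at 756, 883 and 967 CPM in the WT penises. Every WT value was above every SA value, and the highest SA value, in SA tumor 3, was well under the lowest WT value. Its log2 fold change was -1.14, with a standard error (SE) of 0.148 (adjusted p = 0.000322, edgeR). Its partner Itga6 was at 343, 260 and 419 CPM against 419, 502 and 499 CPM, where SA tumor 3 reached the level of WT penis 1. With a log2 fold change of -0.47 (SE 0.174, adjusted p = 0.0470) it did not pass the test, although it did without SA tumor 3 (-0.65, adjusted p = 0.00928). Itga3, whose product pairs with β1 and binds the laminins of epithelial basement membranes, was at 114, 124 and 125 CPM against 157, 167 and 203 CPM. The groups were apart by a small margin, with a log2 fold change of -0.54 (SE 0.117, adjusted p = 0.00475). This call was lost when any of SA tumors 1 and 2 or WT penises 2 and 3 was left out (adjusted p from 0.0124 to 0.0145), and with scaling by library totals (adjusted p = 0.108). Itgb1, the β subunit that most α subunits share, had values of 312, 306 and 385 CPM against 288, 271 and 290 CPM (log2 fold change 0.24, SE 0.115, adjusted p = 0.110). Itga7, the laminin receptor best known from muscle, had a log2 fold change of 0.49 (SE 0.205, adjusted p = 0.0757).

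On a scale that can be compared between genes, CPM per kb of transcript, Itgb4 had the highest level of the 41 genes in WT penises, 141 ± 17.2 (SD, n = 3), and Itgb1 stood at 67.4 ± 2.39. In SA tumors, Itgb4 stood at 64.1 ± 9.93 and Itgb1 was the highest gene at 79.7 ± 10.6, a difference smaller than 2 SD of either gene. Itgb4 made up 46.6, 52.4 and 53.5% of the summed per-kb level of the 8 β subunits in the WT penises and 29.2, 31.0 and 30.7% in the SA tumors. The share of Itgb1 was 26.1, 23.6 and 23.5% in the WT penises and 40.3, 35.1 and 38.2% in the SA tumors. The β4 subunit thus held the larger share in each WT sample and the β1 subunit in each SA sample. The fall of Itgb4 in the same sum raises the shares of the others, and the log2 fold change of Itgb1 itself was 0.24 and did not pass the test. Within the laminin-binding α subunits, Itga6 held 66.2 ± 5.99% in SA tumors and 67.1 ± 2.30% in WT penises, and those ranges overlapped. Shares and ratios are given here without a test, since 3 samples against 3 cannot reach a two-sided exact permutation p below 0.10.

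The plakins were both lower in SA tumors. Dst (mm10 chromosome 1, 33907888 to 34308662), which encodes dystonin, was at 187, 215 and 276 CPM in the SA tumors and at 1004, 1143 and 1288 CPM in the WT penises. No SA value came near the WT values, and the fall was 5.06-fold (log2 fold change -2.34, SE 0.171, adjusted p = 1.53e-05, edgeR). Its per-kb level was the second highest of the 41 genes in WT penises, 130 ± 16.1, within 1 SD of that of Itgb4, and 25.8 ± 5.19 in SA tumors, where it ranked 12. Plec, which encodes the plectin that links integrin β4 to keratin, was at 515, 561 and 623 CPM against 781, 1031 and 1192 CPM. The groups were apart, though less widely, with a log2 fold change of -0.82 (SE 0.164, adjusted p = 0.00311). This call was lost without SA tumor 2 (adjusted p = 0.0140), without WT penis 2 (0.0125) and with scaling by library totals (0.0270). The per-kb level of Dst was 1.97 times that of Plec in WT penises and 0.675 times in SA tumors, and the samples of the groups did not overlap in this ratio.

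The count for Dst came from the transcript row NM_010081, and the other 3 rows of the gene behaved differently. NM_010081 is 8787 bases long, and in the GENCODE annotation M21 of GRCm38 it runs from 34160330 to 34183904 on the plus strand of chromosome 1, in 24 exons. The rows NM_133833, NM_134448 and NM_001276764 are 17210, 23252 and 24271 bases long and begin at 34011813, 34011825 and 33908225. Of the exon bases of the short transcript, 5640 (64.2%) lie in no other row, and 3148 (35.8%) are shared with each long row, so that reads in the shared part count in all rows. The long rows were also lower in SA tumors when each row was tested on its own, with log2 fold changes of -1.05, -0.97 and -0.96 (adjusted p = 0.00303, 0.00522 and 0.00541, edgeR), against -2.33 (SE 0.168, adjusted p = 1.07e-05) for the short row. Per kb, the short row stood at 130 in WT penises and 25.8 in SA tumors, and NM_134448 at 16.0 and 8.15. Reads of the short transcript can therefore make up much of the long-row counts. The lower long rows thus do not show that the long transcripts fell. NM_134448 was at 158, 167 and 243 CPM in the SA tumors and at 279, 385 and 453 CPM in the WT penises. The short row exceeded it by 725, 758 and 835 CPM in the WT penises and by 29.1, 48.2 and 33.2 CPM in the SA tumors. The gap between the short and the long row was therefore wide in every WT sample and narrow in every SA sample. Summed over all 4 rows, the log2 fold change of Dst was -1.53 (adjusted p = 0.000327). Transcript rows were tested one by one after the values of the genes had been seen, and the difference between rows that share reads was not tested. In the other 10 genes with several rows, Plec with 15 among them, the log2 fold changes of the rows differed by at most 0.26.

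**Figure D3:**
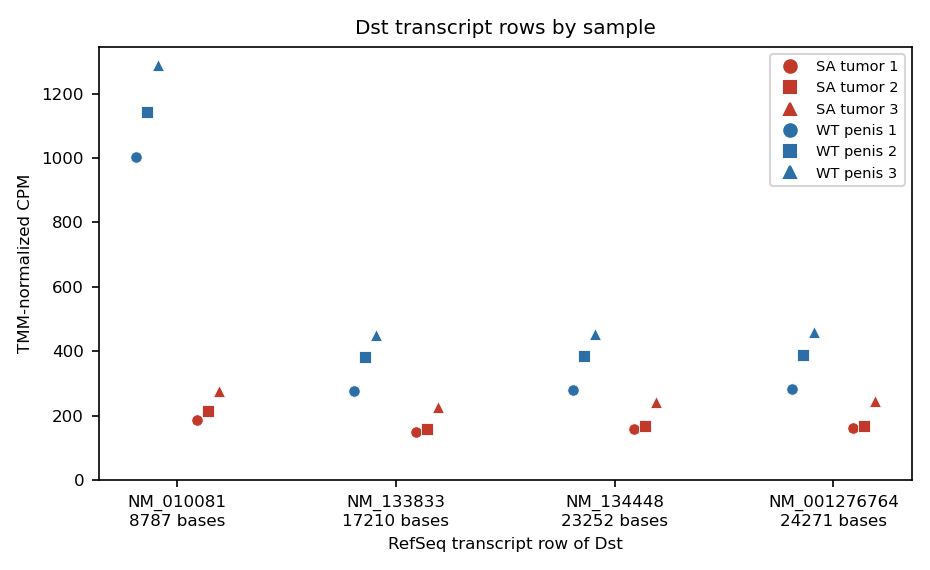
TMM-normalized CPM of the 4 RefSeq transcript rows of Dst in each sample (SA tumors in red, WT penises in blue, 1 symbol per replicate number), ordered by transcript length. The short row NM_010081 lies between 1004 and 1288 CPM in WT penises and between 187 and 276 CPM in SA tumors, while the 3 long rows differ less between the groups.

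The short and long transcripts of Dst start at places far apart on chromosome 1, and RefSeq (GRCm38.p6) gives a promoter window near the start of NM_133833 and NM_134448 and another near that of NM_010081. NM_001276764, the longest row, begins elsewhere and had no window near its start. The 250 bases before each start are shown because the rows that start near them differed in log2 fold change. Those rows share reads, so the output of each start was not measured. Neither window contains the TCF/LEF letters CTTTGAT or CTTTGAA, the AP-1 letters TGACTCA or TGAGTCA, or the SMAD letters GTCTAGAC on either strand, and their GC contents were 68.8% at the long start (chr1:34011345-34011594, plus strand) and 45.2% at the short one (chr1:34160010-34160259, plus strand).
Dst, long start: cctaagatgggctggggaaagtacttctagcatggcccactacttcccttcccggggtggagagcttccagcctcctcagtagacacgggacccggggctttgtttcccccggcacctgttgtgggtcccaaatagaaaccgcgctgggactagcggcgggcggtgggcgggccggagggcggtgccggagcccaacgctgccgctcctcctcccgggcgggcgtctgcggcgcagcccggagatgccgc
Dst, short start: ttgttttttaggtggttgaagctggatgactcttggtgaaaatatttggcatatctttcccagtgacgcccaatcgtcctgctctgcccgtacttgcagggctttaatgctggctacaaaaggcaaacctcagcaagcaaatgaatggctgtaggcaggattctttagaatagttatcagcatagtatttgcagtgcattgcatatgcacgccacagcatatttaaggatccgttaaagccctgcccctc

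The 4 genes of collagen-binding integrin α subunits moved in different directions. Itga1 (NM_001033228, mm10 chromosome 13, 114958079 to 115101964), a receptor for collagen IV and other collagens, was at 59.6, 61.8 and 115 CPM in the SA tumors and at 7.05, 6.91 and 9.11 CPM in the WT penises. SA tumor 3 was the highest, and all SA values were several times the WT values. The rise was 10.3-fold (log2 fold change 3.36, SE 0.292, adjusted p = 6.18e-05, edgeR), and 2.98 on the log2 scale without SA tumor 3. Itga10, a collagen receptor known from cartilage, was at 1.86, 3.21 and 3.11 CPM against 5.61, 6.48 and 7.15 CPM. Its levels were low in both groups without overlap, and its log2 fold change was -1.22 (SE 0.254, adjusted p = 0.00389). This call was lost without WT penis 2 (adjusted p = 0.0163), without WT penis 3 (0.0165) and with scaling by library totals (0.0147). Itga2, the collagen receptor of keratinocytes and platelets, was at 3.20, 3.91 and 6.48 CPM against 6.65, 11.0 and 9.57 CPM (log2 fold change -0.98, SE 0.302, adjusted p = 0.0241), and it passed the test only without SA tumor 3 (adjusted p = 0.00321), in DESeq2 and with the deepest library thinned. Itga11, a receptor of fibroblasts for fibrillar collagen, overlapped between the groups (0.61, SE 0.346, adjusted p = 0.168).

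Expressed as shares of the summed per-kb level of these 4 subunits, Itga1 was the largest in each SA tumor and Itga2 in each WT penis. Itga1 held 83.6, 82.1 and 86.1% in the SA tumors and 28.4, 20.6 and 25.5% in the WT penises. Itga2 held 40.9 ± 5.08% in WT penises and 6.87 ± 0.499% in SA tumors, and Itga10 held 24.5 ± 2.05% and 3.64 ± 1.24%. The rise of Itga1 in the same sum lowers the shares of the others, and the log2 fold change of Itga2 itself was -0.98 and did not pass the test. Itga1 ranked 33 of the 41 genes by per-kb level in WT penises and 19 in SA tumors. Its per-kb level was 0.0189 times that of Itgb1, its β partner, in WT penises and 0.158 times in SA tumors. Of the marker lists for cell types that can carry this receptor, none of 10 smooth muscle and none of 10 endothelial genes was higher in SA tumors, and 10 and 4 of them were lower. Of 10 fibroblast markers, 1 was higher and 2 were lower. Of 7 T cell markers, 2 were higher and none was lower. The part of these cells in the rise of Itga1 was not tested.

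**Figure D4:**
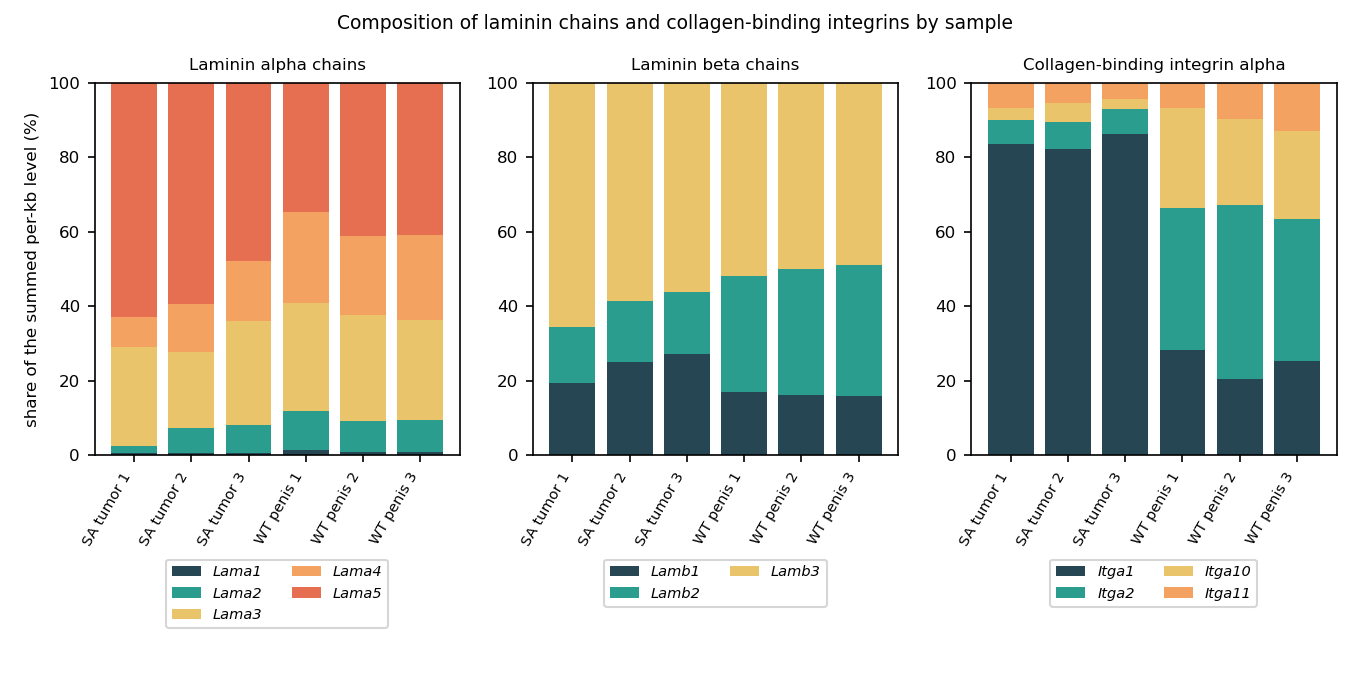
Share of each gene in the summed per-kb level of the laminin α chains, the laminin β chains and the collagen-binding integrin α subunits (stacked bars, in percent), 1 bar per sample. Itga1 takes between 82.1 and 86.1% of its class in SA tumors and between 20.6 and 28.4% in WT penises, and Lamb2 takes a smaller and Lama5 a larger share in every SA tumor than in any WT penis.

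Of the 8 genes for subunits of RGD-binding integrins, 2 were lower (25%, against 17.5% of all genes) and none was higher (against 20.1%). Itga8 (NM_001001309, mm10 chromosome 2, 12106632 to 12301985), whose product binds nephronectin and fibronectin on mesenchymal and smooth muscle cells, was at 2.75, 3.91 and 7.71 CPM in the SA tumors and at 49.1, 54.7 and 75.9 CPM in the WT penises. The separation was wide and SA tumor 3 was the highest of its group. The fall was 12.0-fold (log2 fold change -3.59, SE 0.392, adjusted p = 0.000282, edgeR). It came with lower levels of all 10 smooth muscle markers, whose median log2 fold change was -4.15. The per-kb level of Itga8 relative to that of Myh11, the heavy chain of smooth muscle myosin, was higher in each SA tumor (log2 ratio -2.25 to 0.02) than in any WT penis (-3.42 to -3.19), but the direction depended on the marker. Over the 10 smooth muscle markers, the ratio was higher in every SA tumor for 5, lower for 3 (Smtn, Myocd and Synpo2) and overlapping for 2. The part of smooth muscle in the fall of Itga8 was not tested.

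Itgb6 (mm10 chromosome 2, 60598292 to 60722603), an epithelial subunit that joins with αv to release TGF-β from its latent form, was at 10.6, 11.2 and 13.3 CPM in the SA tumors and at 28.6, 39.3 and 46.5 CPM in the WT penises. The SA values were close together and below all WT values, with a log2 fold change of -1.70 (SE 0.189, adjusted p = 0.000136, edgeR). Itgb8, the other subunit known for latent TGF-β activation, was low in both groups, with 2.27, 1.66 and 2.36 CPM against 2.17, 4.07 and 4.78 CPM, and the groups overlapped (log2 fold change -0.80, SE 0.326, adjusted p = 0.0671). Their α partner Itgav was at 115, 76.5 and 126 CPM against 81.5, 92.7 and 99.3 CPM (0.21, SE 0.179, adjusted p = 0.348). Itgb5, the vitronectin receptor subunit and the most abundant of the RGD-binding β subunits per kb, had the smallest change of the 8 (-0.03, SE 0.103, adjusted p = 0.813), and its sign changed with the scaling. Itga5, the fibronectin receptor, had a log2 fold change of 0.30 (SE 0.288), Itgb3, which is found on platelets and endothelium, of 0.42 (0.293), and Itga2b, its platelet partner, of -0.46 (0.294), and the groups overlapped in all 3. The α4 and α9 subunits, which bind VCAM-1 and tenascin among others, did not pass the test either, with log2 fold changes of 0.91 (SE 0.274, adjusted p = 0.0217) and -0.28 (SE 0.174, adjusted p = 0.212). Itga4, the α4 gene, was at 7.51, 6.85 and 13.2 CPM in the SA tumors and at 5.33, 4.27 and 5.19 CPM in the WT penises, without overlap. It passed only in DESeq2 (adjusted p = 0.00431) and with scaling by library totals (0.00685, edgeR). Itga8 made up 24.5 ± 0.826% of the summed per-kb level of the RGD-binding α subunits in WT penises and 2.09 ± 0.730% in SA tumors. Itgb6 made up 12.5 ± 3.10% of the β subunits of this group in WT penises and 4.25 ± 0.401% in SA tumors.

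The integrins of leukocytes had the highest median change of any role, a log2 fold change of 1.75 over 6 genes. Of these, 3 were higher (50%, against 20.1% of all genes) and none was lower (against 17.5%). Itgae (mm10 chromosome 11, 73090505 to 73147449), the αE subunit that binds E-cadherin and marks lymphocytes and dendritic cells within epithelium, was at 7.62, 6.26 and 9.72 CPM in the SA tumors and at 2.03, 1.27 and 0.729 CPM in the WT penises. All SA values were above the WT values, at low levels, with a log2 fold change of 2.55 (SE 0.356, adjusted p = 0.000469, edgeR). Its β partner Itgb7 had values of 2.42, 7.75 and 10.9 CPM against 7.59, 4.21 and 3.83 CPM, and the groups overlapped because SA tumor 1 had the lowest value of all (0.45, SE 0.522, adjusted p = 0.496). Itgax (mm10 chromosome 7, 128129526 to 128150657), the αX subunit of dendritic and other myeloid cells, was at 11.9, 17.2 and 26.5 CPM against 5.83, 4.24 and 3.01 CPM. The groups were apart, with a log2 fold change of 2.10 (SE 0.34, adjusted p = 0.00121). Itgal, the αL subunit of LFA-1, was at 5.54, 7.75 and 17.2 CPM against 3.48, 2.80 and 1.87 CPM, with SA tumor 3 far above the other SA samples. Its log2 fold change of 1.92 (SE 0.446, adjusted p = 0.00780) became 1.29 without SA tumor 3 (adjusted p = 0.00691), and the call was lost without SA tumor 2 (0.0140) and without WT penis 1, 2 or 3 (0.0222, 0.0353 and 0.0364). It was also lost with the replicate number as a block (0.0308), in limma-voom (0.0189), with no filter on low counts (0.0107) and with summed transcript rows (0.0105). Itgb2, the β subunit they share, and Itgam, the αM subunit of neutrophils and macrophages, had log2 fold changes of 1.58 (SE 0.403, adjusted p = 0.0135) and 1.19 (SE 0.369, adjusted p = 0.0304) with SA values above WT values. Both passed the test without SA tumor 1 (adjusted p = 0.000704 and 0.00145) and in DESeq2.

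The lists of leukocyte markers did not all move with these genes. Of 8 general leukocyte markers, 3 were higher and none was lower in SA tumors, and their sum was 115 to 329 CPM against 71.7 to 110 CPM. All 9 granulocyte markers measured were higher, while 1 of 10 macrophage and dendritic cell markers was lower and none was higher, with sums of 141 to 338 CPM against 231 to 330 CPM. Of the T cell markers, Cd5 and Lck were higher, and the T cell receptor component Cd3e was at 0.632, 1.16 and 3.00 CPM against 0.949, 0.634 and 0.410 CPM, with overlap. Relative to Ptprc, which encodes the pan-leukocyte protein CD45, the per-kb level of Itgb2 was alike in its range (a log2 ratio of 0.55 to 0.95 in SA tumors and 0.50 to 0.89 in WT penises). The same ratio was -1.54 to -0.14 for Itgae in SA tumors against -2.74 to -1.74 in WT penises, and 0.48 to 0.70 for Itgam against 0.95 to 1.03. Itgae was higher in each SA tumor than in any WT penis relative to all 8 general leukocyte markers. Itgam was lower relative to 5 of the 8, Ptprc among them, and overlapped relative to Coro1a, Laptm5 and Cd52. Itgb2 overlapped relative to 5 of the 8 and was higher relative to 3. Ratios to each marker of a list were added after the values had been seen. The part of leukocyte number in these values was not tested.

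**Figure D5:**
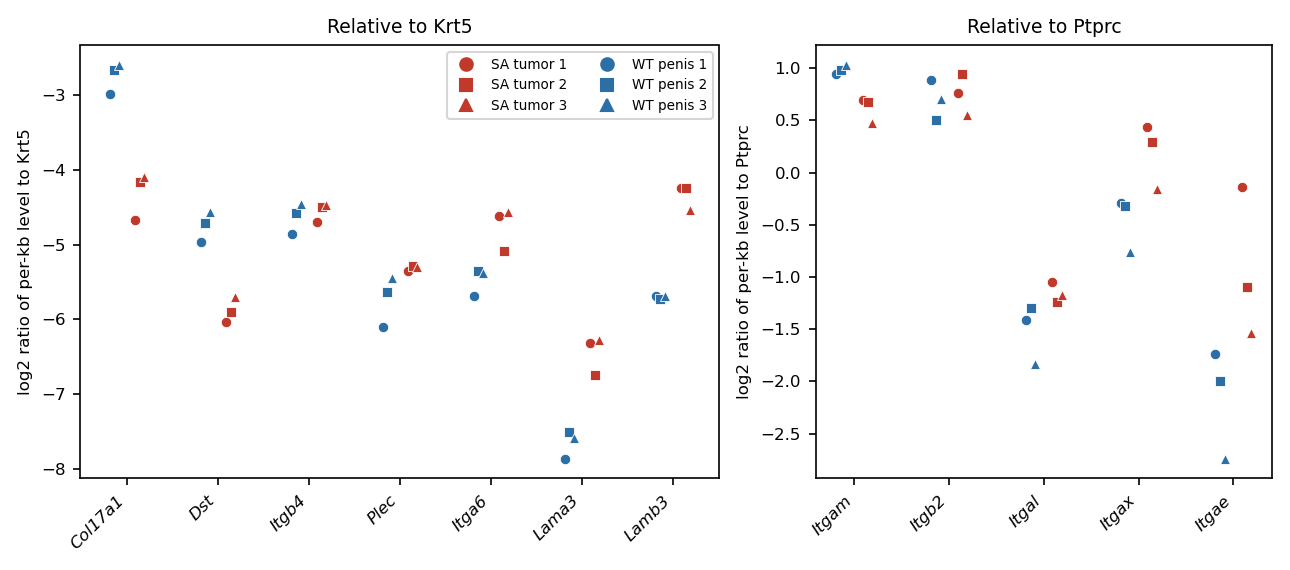
Log2 ratio of the per-kb level of hemidesmosome and laminin genes to the basal keratinocyte gene Krt5 (left) and of leukocyte integrins to the leukocyte gene Ptprc (right) in each sample, with SA tumors in red, WT penises in blue and 1 symbol per replicate number. Relative to Krt5, Itgb4 overlaps between the groups, Dst and Col17a1 are lower and Lama3 and Lamb3 higher in every SA tumor, and relative to Ptprc, Itgb2 overlaps while Itgae is higher and Itgam lower. Against other markers of the same lists some of these directions differ, among them that of Itgam, which overlaps relative to 3 of 8 leukocyte markers.

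Of the 10 laminin chains, Lama5 was higher and Lamb2 was lower in SA tumors. That is 10% in each direction, where 20.1% of all genes were higher and 17.5% lower. Lama5 (NM_001081171, mm10 chromosome 2, 180176373 to 180225904), the α chain of basement membranes under most epithelia and vessels, was at 472, 454 and 411 CPM in the SA tumors and at 210, 308 and 316 CPM in the WT penises. The groups did not overlap, and WT penis 1 was the lowest sample. The log2 fold change of 0.68 (SE 0.162, adjusted p = 0.00750, edgeR) no longer passed without SA tumor 1 (adjusted p = 0.0189), SA tumor 2 (0.0258) or WT penis 2 (0.0153), or with the replicate number as a block (0.0120). Lamb2 (NM_008483, mm10 chromosome 9, 108479847 to 108490530), the β2 chain known from vessel walls, muscle and nerve, was at 96.0, 122 and 117 CPM against 235, 243 and 272 CPM. Its log2 fold change of -1.16 (SE 0.119, adjusted p = 8.82e-05) came with groups that were far apart. Lamb1, the β1 chain, had values of 128, 192 and 196 CPM against 131, 121 and 127 CPM, where SA tumor 1 stood at the level of the WT samples (0.45, SE 0.159, adjusted p = 0.0425). Without SA tumor 1 its log2 fold change was 0.61 (adjusted p = 0.00137). The per-kb level of Lamb2 was 2.03 times that of Lamb1 in WT penises and 0.674 times in SA tumors, without overlap between samples.

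The α3 and β3 chains of hemidesmosome laminin did not pass the test. Lama3 was at 181, 141 and 218 CPM in the SA tumors and at 159, 194 and 187 CPM in the WT penises, with overlap and a log2 fold change of 0.00 (SE 0.161, adjusted p = 0.993). Lamb3 was at 301, 314 and 284 CPM against 281, 260.6 and 272 CPM, a small gap without overlap (0.15, SE 0.0918, adjusted p = 0.213). With scaling by library totals, Lamb3 passed the test at a log2 fold change of 0.43 (adjusted p = 0.00314). The α4 chain of vessels (Lama4, -0.69, SE 0.266, adjusted p = 0.0618), the α2 chain of muscle and nerve (Lama2, -0.56, SE 0.490, adjusted p = 0.378) and the embryonic α1 chain (Lama1, -0.44, SE 0.196, adjusted p = 0.0875) had values below zero that did not pass. Lama2 was at 12.4, 43.0 and 55.6 CPM against 54.9, 51.8 and 58.0 CPM, so that SA tumor 1 alone stood far below the other 5 samples. Lamc3, a γ chain found outside most basement membranes, was at 10.9, 24.0 and 38.6 CPM against 62.1, 59.4 and 56.5 CPM. The SA values were all lower and widely spread (-1.26, SE 0.408, adjusted p = 0.0376), and the test was passed without SA tumor 1 (-0.92, adjusted p = 0.00443) or without SA tumor 3 (-1.76, adjusted p = 0.00204). Lamc1, the common γ1 chain, had a log2 fold change of 0.31 (SE 0.137, adjusted p = 0.0924).

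Among the laminin α chains, Lama5 held 56.7 ± 7.88% of the summed per-kb level in SA tumors and 38.9 ± 3.66% in WT penises, and Lama4 held 12.3 ± 3.99% and 22.8 ± 1.60%, each without overlap. Lama3 held 25.0 ± 4.03% and 28.1 ± 1.25%, with overlap. Among the 3 β chains, Lamb2 held 16.0 ± 0.860% in SA tumors and 33.3 ± 1.97% in WT penises, Lamb3 held 60.05 ± 4.79% and 50.2 ± 1.46%, and Lamb1 held 24.0 ± 3.93% and 16.4 ± 0.509%. The fall of Lamb2 in the same sum raises the shares of Lamb3 and Lamb1, neither of which passed the test with all 6 samples under the main settings. None of the 4 linker genes passed the test. Agrn was at 245, 238 and 247 CPM against 283, 372 and 401 CPM, and its adjusted p of 0.0102 (log2 fold change -0.53, SE 0.135) was just outside the threshold. It passed in 4 of the 17 alternatives: without WT penis 1 (-0.68, adjusted p = 0.00138), with RLE scaling (0.00964), with no filter on low counts and in DESeq2. Hspg2 was at 332, 395 and 444 CPM against 251, 290 and 325 CPM (0.44, SE 0.142, adjusted p = 0.0300), with SA values above WT values by a narrow margin. Nid1 was at 100.2, 120 and 196 CPM against 97.0, 103 and 140 CPM (0.29, SE 0.261, adjusted p = 0.379), and SA tumor 3 alone stood above the WT values. Nid2 (0.56, SE 0.229, adjusted p = 0.0703) also overlapped between the groups.

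The SA samples were ordered alike across these genes. SA tumor 1 was the lowest of the 3 SA tumors in 30 of the 41 genes, where it was the lowest in 32.7% of all genes tested, and SA tumor 3 was the highest in 34 of 41, against 35.8% of all genes. The WT penises were also ordered, though less strongly. WT penis 1 was the lowest in 23 of 41 (against 40.6% of all genes) and WT penis 3 the highest in 23 of 41 (against 34.6%). The sum of 10 fibroblast markers was 1629 CPM in SA tumor 1, 4148 CPM in SA tumor 2 and 5260 CPM in SA tumor 3, and SA tumor 3 was also the deepest library. The part of fibroblasts and of depth in the order of the SA tumors was not tested.

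Levels of the hemidesmosome genes were also set against Krt5, the basal keratin, which was itself lower in SA tumors. Krt5 was at 3071, 3194 and 3587 CPM in the SA tumors and at 7814, 7458 and 7569 CPM in the WT penises (log2 fold change -1.21, SE 0.120, adjusted p = 7.35e-05, edgeR). The log2 ratio of the per-kb level of Itgb4 to that of Krt5 was -4.56 ± 0.12 in SA tumors and -4.63 ± 0.21 in WT penises, and the samples overlapped. For Dst the same ratio was -5.88 ± 0.17 against -4.75 ± 0.20, and for Col17a1 -4.31 ± 0.32 against -2.75 ± 0.21. Both genes were thus lower relative to Krt5 in each SA tumor than in any WT penis. Over the 10 keratinocyte markers, the ratio of Dst was lower in every SA tumor for 7, higher for 1 and overlapping for 2, and that of Col17a1 lower for 8, higher for 1 and overlapping for 1. The exception was in both genes the basal keratin Krt15. For Itga6 (-4.75 ± 0.29 against -5.47 ± 0.18), Plec (-5.31 ± 0.04 against -5.72 ± 0.34), Lama3 (-6.45 ± 0.25 against -7.65 ± 0.19) and Lamb3 (-4.34 ± 0.18 against -5.70 ± 0.02) the ratio to Krt5 was higher in each SA tumor. Against the 10 markers, Lamb3 was higher for 7 and lower for 1, Lama3 and Itga6 each higher for 5 and lower for 2, Plec higher for 4 and lower for 2, and Itgb4 higher for 2 and lower for 4, with overlap for the others. The direction thus depended on the marker in all 7 genes. Of 10 keratinocyte markers, 5 were lower and 1 was higher in SA tumors.

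Genes that work with integrins and laminins were counted in 5 lists, of which 92 genes were tested. Of these, 20 were higher (21.7%, against 20.1% of all genes) and 28 were lower (30.4%, against 17.5%) in SA tumors. The 11 hemidesmosome and anchoring genes held 4 higher and 3 lower. Col17a1, the transmembrane collagen of the hemidesmosome, was at 305, 453 and 531 CPM in the SA tumors and at 2481, 2970 and 3158 CPM in the WT penises. Its fall of 6.67-fold (log2 fold change -2.74, SE 0.215, adjusted p = 2.26e-05) was the largest of that list, ahead of that of Krt5. Frem1 and Frem2, which encode proteins of the Fras1 complex that anchors the epidermal basement membrane, were higher by log2 fold changes of 4.11 and 2.49 (adjusted p = 9.51e-06 and 2.73e-05).

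The 21 tested genes of basement membrane collagens and related proteins held 7 higher and 8 lower. Col4a6 and Col4a5, the paired α6 and α5 chains of collagen IV, were lower, with log2 fold changes of -3.24 and -2.25. Of the other collagen IV chains, Col4a1 and Col4a2 were higher (1.64 and 1.67), Col4a4 was lower (-0.97) and Col4a3 was not called (0.35). Col4a1 and Col4a2 had means of 565 and 438 CPM in SA tumors and 181 and 138 CPM in WT penises. Col4a6 was at 5.65, 5.56 and 4.44 CPM in the SA tumors and at 38.6, 51.8 and 56.7 CPM in the WT penises, with no overlap. Egfl6 and Smoc2, which encode secreted matrix proteins, were higher (2.28 and 1.80). The 12 laminin receptors that are not integrins held 7 lower and none higher, with Sgce (-2.01) and Sspn (-1.62), parts of the dystrophin-associated complex, as the named examples. Of 18 tested integrin ligand genes, 5 were higher and 2 were lower. Spp1, which encodes osteopontin, was at 230, 468 and 377 CPM in the SA tumors and at 4.75, 3.74 and 4.33 CPM in the WT penises (log2 fold change 6.39, SE 0.306), Tnc, which encodes tenascin-C, was higher by 2.92, and Postn, which encodes periostin, was lower (-1.99). Of 30 genes for adaptors that bind integrin tails or link them to actin, 4 were higher and 8 were lower. Parvg, the parvin of blood cells, and the docking protein gene Nedd9 were higher (5.46 and 2.05), and Lims2 and Tns1 were lower (-2.76 and -2.51). In SA tumors 1, 2 and 3, Parvg was at 58.2, 55.3 and 31.7 CPM and the leukocyte gene Ptprc at 12.2, 19.5 and 41.1 CPM. The part of leukocytes in the rise of Parvg was not tested. The adjusted p of the changed genes named in this paragraph was between 3.63e-06 and 0.00587 (edgeR).

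The 250 bases upstream of the start are shown for the genes with the largest rise and fall and for Itgax, again from RefSeq (GRCm38.p6). Among the genes with a window, Itgax alone had an AP-1 match. Of the 41 genes, 27 had such a window, 32 windows in all. Capitals in the Itga1 window (chr13:115101965-115102214, minus strand) mark a TCF/LEF match, CTTTGAA, from 113 to 107 bases before the start, and capitals in the Itgax window (chr7:128129300-128129549, plus strand) an AP-1 match, TGAGTCA, from 56 to 50 bases before it. The Itga8 window (chr2:12301945-12302194, minus strand) holds none of the letters searched.
Itga1: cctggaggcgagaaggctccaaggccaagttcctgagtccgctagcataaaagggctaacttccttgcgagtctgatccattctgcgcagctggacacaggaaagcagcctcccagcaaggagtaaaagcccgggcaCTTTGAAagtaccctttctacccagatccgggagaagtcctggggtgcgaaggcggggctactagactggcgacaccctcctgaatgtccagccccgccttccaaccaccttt
Itga8: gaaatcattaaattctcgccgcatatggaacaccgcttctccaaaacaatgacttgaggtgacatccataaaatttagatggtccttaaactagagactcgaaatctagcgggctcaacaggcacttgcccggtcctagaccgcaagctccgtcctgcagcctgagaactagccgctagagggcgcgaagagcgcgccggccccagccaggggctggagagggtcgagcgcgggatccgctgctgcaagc
Itgax: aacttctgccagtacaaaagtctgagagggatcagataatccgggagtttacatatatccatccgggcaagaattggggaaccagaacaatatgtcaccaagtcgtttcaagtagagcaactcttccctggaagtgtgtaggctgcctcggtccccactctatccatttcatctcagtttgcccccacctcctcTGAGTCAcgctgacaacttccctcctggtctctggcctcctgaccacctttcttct

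The TCF/LEF letters, on either strand, were in 2 of the 32 windows, those of Itga1 and Itga10, and in 7.48% of the windows of 32851 starts in the table. The AP-1 letters were in 1 of 32, against 4.46%, and the SMAD letters in none, against 0.167%. A match describes letters in a window and says nothing of binding. The motifs were chosen after the values had been seen.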

How the data were processed

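RNA of 3 SA tumors and 3 WT penises was compared. Per the labels and the study's methods, reads were aligned by the authors to the mm10 build using TopHat, checked with FastQC, counted with HTSeq and compared with DESeq2. The authors deposited raw counts per RefSeq transcript, with FPKM and TPM values of the same reads that the authors derived from these counts and that served here to recover transcript lengths. Aligner versions and annotation release are not given in the sources used here.

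The transcript row with the highest mean count stood for each of 24063 symbols, and library sizes were the sums of these rows. Counts were tested in R 4.3.3 with edgeR 4.0.16 (filterByExpr with a minimum of 10 counts, 16336 genes kept, TMM, robust quasi-likelihood F-test, Benjamini-Hochberg adjustment). A gene was called changed at an adjusted p under 0.01, and a log2 fold change of 2 in size was the study's further threshold. The standard error was the size of the log2 fold change divided by the root of F. The per-kb level is the CPM divided by the transcript length in kb. The fit was tested on simulated counts.

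The 41 genes, the partner lists and the marker lists were chosen with earlier results of these data known. From each partner list, the 2 changed genes of largest size in each direction with a mean of at least 100 counts are named. The other collagen IV chains are named as well. Genes named as markers come from the marker lists. Tools and settings compared were RLE, upper quartile and library-total scaling, TMM without the 50 highest genes, DESeq2 1.42.0, limma-voom (limma 3.58.1), no filter, a mean of at least 50 counts, a replicate block, summed transcript rows, the deepest library thinned, and each library left out. Replicates are tissues of different mice, as the study describes them. Replicate numbers did not pair the samples: residuals of same-numbered samples correlated at -0.135, -0.105 and 0.0238.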

Additional observations from a re-analysis of the deposited data

How the results depend on the processing

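Of 697 values (41 genes under 17 alternatives), 633 kept their direction and their side of the threshold, 23 lost a call, 26 gained one and 15 changed sign. With library totals alone, where the median log2 fold change of all genes was 0.31, 12 genes were higher and 5 lower. DESeq2 called 8 higher genes of 19 in all. No pairing of replicate numbers was found, since 1 of 6 samples correlated best with its own number, and the replicate block gave 3 higher genes of 11 in all, losing Itgal and Lama5. When each library was left out in turn, the number of changed genes was 8 to 17, with 3 to 8 higher and 5 to 12 lower. All sign changes were of genes that did not pass the test. Lama3 stood at -0.0027 with RLE scaling, -0.0090 in DESeq2, -0.0263 in limma-voom, -0.0071 with no filter and -0.0149 with the block. Itgb5 stood at 0.0283 with upper quartile scaling and 0.2546 with library totals, and Itga9 at 0.0082 with library totals. With a library left out, the ranges were -0.1584 to 0.148 for Lama3, -0.0906 to 0.0289 for Itgb5, -0.0228 to 0.8476 for Itgb7 and -0.0403 to 0.4749 for Nid1. The cause of these changes was not tested. The number of genes past both thresholds was 4 to 6 in all alternatives, and that of changed partner genes 36 to 57.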
